A study of Mus musculus with 16 samples.

Results

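The histone genes described here are the 71 genes of the array whose symbol, current or older, is that of a core histone, a linker histone or an H2A variant. Of 19505 genes with a named probe set, 57 were found by the current symbol (H1f, H2ac, H2bc, H3c and H4c followed by a number) and 14 by an older one (Hist1h to Hist4h, or H2af). Each of the 71 had 1 probe set, so none had to be picked from several. They fell into 54 genes of the replication-dependent families, 8 genes outside the clusters and 9 genes known for expression in germ cells. The 54, called cluster genes here, were 4 for H1, 12 for H2A, 16 for H2B, 10 for H3 and 12 for H4. Of the cluster genes, 44 lie on mouse chromosome 13 and 8 on chromosome 3, while H2bu2 lies on chromosome 11 and H4f16 on chromosome 6.

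The arrays (Clariom S, Affymetrix) measured RNA of sorted olfactory mucosa cells of S100a5-tauGFP mice, in which GFP marks cells that use the promoter of S100a5, a gene of olfactory sensory neurons that depends on activity. All 24 mice carried this reporter, were of both sexes and 7 to 12 weeks old, and stayed for 40 h in chambers supplied with clean air at 3.1 L/min. They formed 8 pools of 3 mice, and a cell sorter parted the cells of every pool by GFP, which gave 16 arrays. The groups were 2-octanone GFP+, vehicle GFP+, 2-octanone GFP− and vehicle GFP−, with 4 arrays each; 2-octanone is a ketone odorant, given from 26 h on for 10 s every 20 min, and vehicle was filtered air given in the same way. The spread between arrays is that between pools of 3 mice, and no single mouse was measured.

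Histone proteins package DNA into nucleosomes. Most cluster genes are transcribed mainly in S phase, when a dividing cell copies its DNA. Most of their mRNAs end in a stem-loop in place of a poly(A) tail. Variants such as H2A.Z, macroH2A and H3.3 come from single genes outside the clusters, are made throughout the cell cycle and serve cells that no longer divide. In the olfactory mucosa, globose basal cells divide and give rise to immature and then mature sensory neurons, which do not divide. The mouse cluster gene H2bc21 (older symbols Hist2h2be, H2be) encodes the variant H2BE, known in mouse from olfactory sensory neurons, where neurons that are often stimulated hold less of it. In human and mouse, some cluster genes, among them H2bc21, H2bc4 and H2ac6, are known also to give polyadenylated transcripts in differentiated cells. How the cDNA was primed is not given in the sources used here.

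All values are the authors' normalised signals, taken as log2, and differences are on that scale unless a fold is given. Array medians were 7.65 to 8.02, background probe sets averaged 5.40 to 5.61 on the single arrays, and the correlation between arrays of one group across genes was 0.982 to 0.995. Omp, the marker of mature olfactory sensory neurons, read 18.35 to 18.45 in GFP+ and 17.76 to 18.36 in GFP− arrays, so that both fractions held these neurons. The 4 arrays of the pools numbered 4 in either exposure stood apart in S100a5, which was 13.11 to 13.92 there and 15.45 to 16.98 on the other arrays. Of the histone genes, H1f6, H1f8, H2ab2, H2ab3 and H3c1 were below background in both fractions and H2bu2 in GFP+ cells, and they have no fold here. Coding sequences of cluster genes of one class are nearly identical, so probe sets of different members may pick up each other's RNA. H3c14 and H3c15 had the same value on all 16 arrays and are 1 measurement.

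Setting GFP+ against GFP− cells asks how reporter-positive cells differ from the other cells of the mucosa. Most cluster histone genes were lower in GFP+ cells, in each of the 5 classes. Over both exposures, 51 of the 71 histone genes were lower and 2 were higher at an adjusted p under 0.05 (limma, Benjamini-Hochberg over all genes). Of all genes, 14.0% were called lower, 16.7% higher and 30.8% in either direction. The median difference was −0.83 for the histone genes and −1.23 for the cluster genes, beside 0.13 for all genes. Of the 54 cluster genes, 47 were lower and none higher: 41 of the 44 on chromosome 13 and 6 of the 8 on chromosome 3. In bulk samples, fewer cells of a type and less RNA per cell cannot be told apart.

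The groups were apart for many of these genes. All 8 GFP+ arrays lay below all 8 GFP− arrays for 36 histone genes, 35 of them cluster genes, as they did for 8.27% of all genes. GFP+ cells were lower than GFP− cells of the same mice in all 8 pools for 48 histone genes, 45 of them cluster genes, beside 12.2% of all genes. With each array centred on its median, every difference rose by 0.28. Of all genes called, 45.6% were lower as deposited, 35.3% after quantile normalisation and 13.6% after centring. After centring, 41 cluster genes were lower and 2 higher, beside 10.5% and 66.7% of all genes, 77.2% in either direction.

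**Figure D1:**
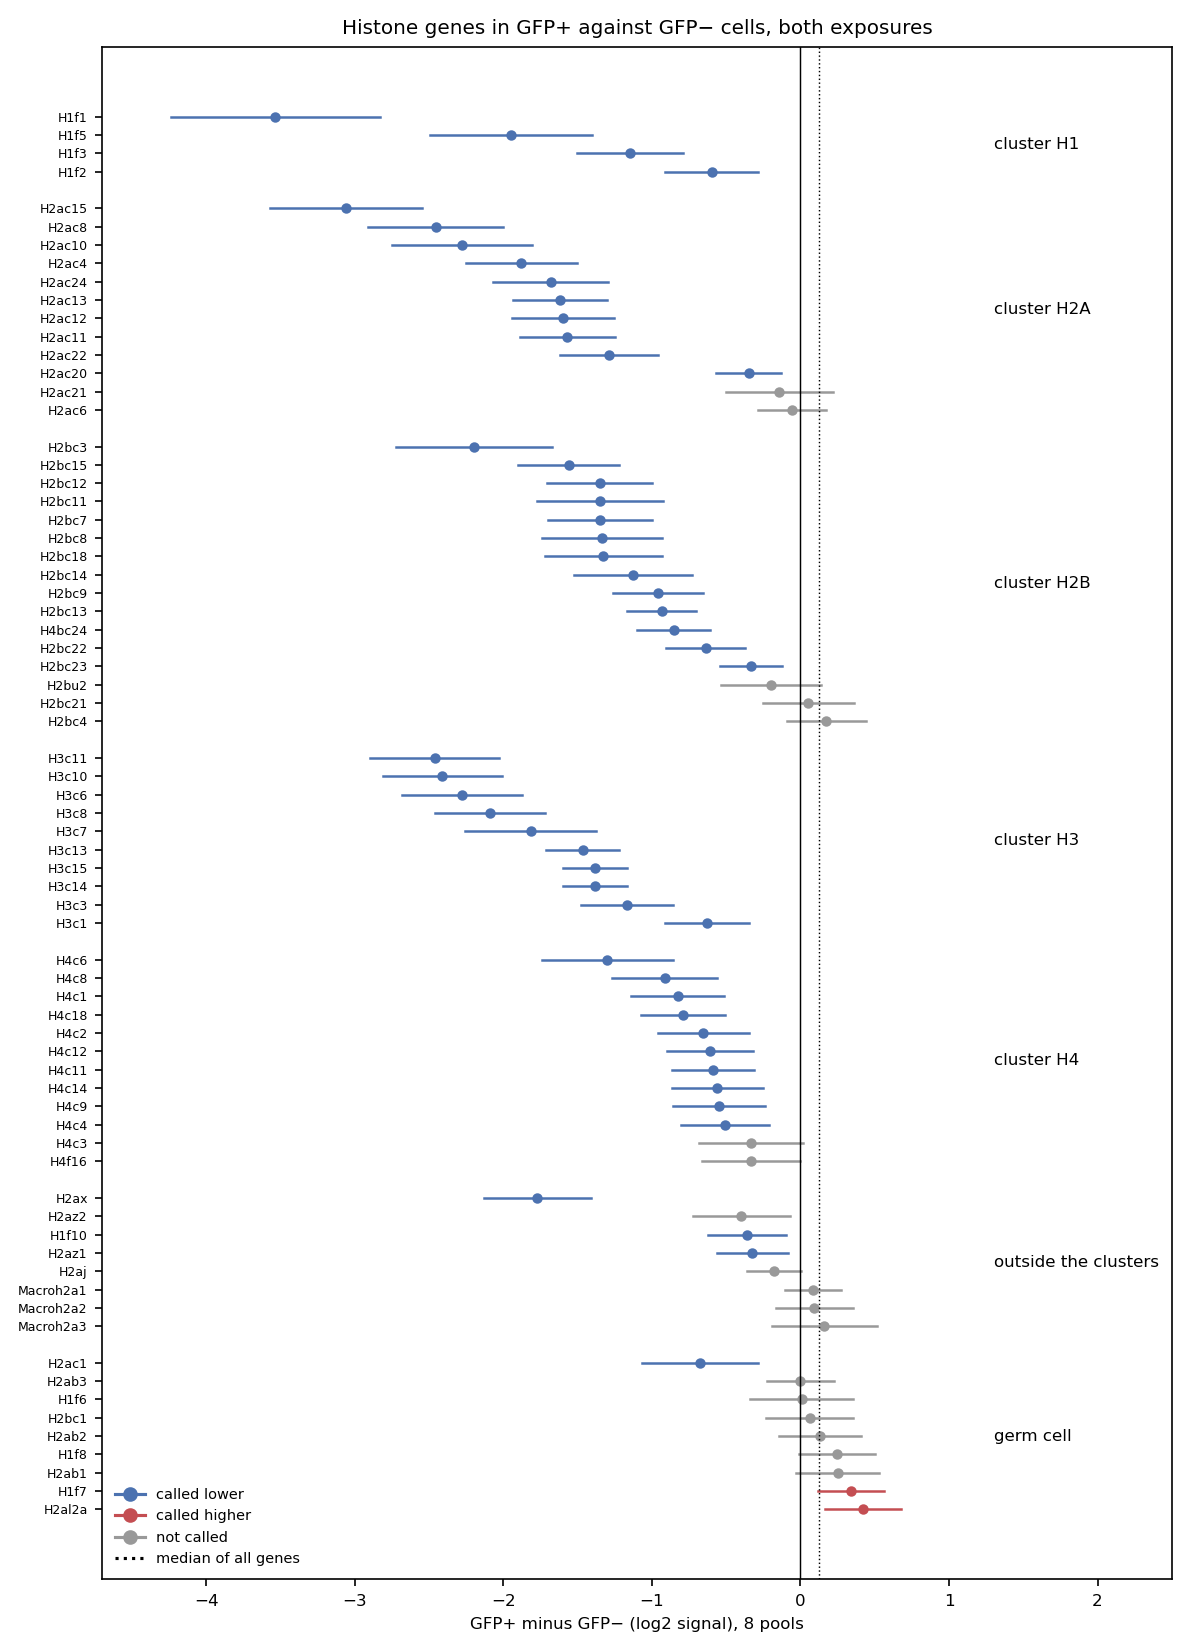
Log2 signal in GFP+ minus that in GFP− cells, all 8 pools (x axis), for the 71 histone genes, ordered within their class, with 95% intervals from limma; blue genes were called lower, red higher and grey were not called. The dotted line is the median of all genes, 0.13, and the cluster genes run from −3.53 for H1f1 to 0.17 for H2bc4.

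Linker histones, which bind the DNA between nucleosomes, were lower for all 4 cluster genes, with a median difference of −1.55. H1f1 (older symbol Hist1h1a) had the lowest difference of all 71. In GFP+ cells it read 7.42, 6.65, 7.04 and 8.10 in the 2-octanone pools and 6.45, 6.83, 6.67 and 7.04 in the vehicle pools. In GFP− cells it read 9.88, 11.01, 9.77 and 11.35 in the 2-octanone pools and 10.40, 10.22, 9.65 and 12.21 in the vehicle pools. The fractions did not overlap, and the highest GFP+ array was that of 2-octanone pool 4, the highest GFP− array that of vehicle pool 4. The difference was −3.53 (SE 0.33, 95% interval −4.24 to −2.83, limma adjusted p = 3.3e-07, n = 8 pools), or 11.6-fold lower in GFP+ cells. H1f5 was 3.87-fold lower, H1f3 2.21-fold and H1f2 1.51-fold, each in all 8 pools. In GFP+ cells H1f5 averaged 5.81 after 2-octanone and 5.88 after vehicle. These values are close to the background means of 5.54 and 5.53 on the same arrays, which limits its fold. For H1f2 alone among the 4 H1 genes the fractions overlapped, and its call was lost after centring (−0.32, limma adjusted p = 0.0615).

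Genes for H2A, which forms a dimer with H2B on the outer face of the nucleosome, were lower for 10 of 12 (median −1.61). H2ac15 ranged from 10.64 to 11.61 (median 11.12) in the 8 GFP+ arrays and from 13.22 to 15.27 (median 14.16) in the 8 GFP− arrays. The fractions lay apart, with a difference of −3.06 (SE 0.24, limma adjusted p = 4.71e-08), 8.34-fold lower in GFP+ cells. H2ac8 differed by −2.46 (SE 0.22), 5.49-fold, H2ac4 by −1.88 (SE 0.18) and H2ac13 by −1.62 (SE 0.15), and their fractions did not overlap either. The members of this class without a call were H2ac21 and H2ac6. H2ac21 differed by −0.14 (95% interval −0.50 to 0.22), and by 0.13 after centring. H2ac6 read 11.43, 11.31, 11.67 and 11.52 in the 2-octanone pools and 11.80, 11.25, 11.45 and 11.66 in the vehicle pools in GFP+ cells. It read 11.50, 11.35, 11.48 and 11.82 in the 2-octanone pools and 11.52, 11.62, 11.37 and 11.87 in the vehicle pools in GFP− cells. The groups covered the same range, and the difference was −0.05 (95% interval −0.28 to 0.17, limma adjusted p = 0.724), turning to 0.22 after centring.

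Genes for H2B were lower for 13 of 16 (median −1.04). H2bc3 ranged from 8.02 to 8.83 (median 8.37) in GFP+ and from 9.86 to 11.88 (median 10.48) in GFP− arrays, a difference of −2.20 (SE 0.25, limma adjusted p = 2.92e-06), 4.59-fold lower in GFP+ cells. H2bc15 was 2.95-fold lower (−1.56, SE 0.16), H2bc7 2.55-fold (−1.35, SE 0.17) and H2bc13 1.91-fold (−0.94, SE 0.11). The fractions did not overlap for these 4 genes. H2bc21, H2bc4 and H2bu2, a gene outside the chromosome 13 and 3 clusters, were not called, and the first of these is described on its own further on. H2bc4 ranged from 15.15 to 15.91 (median 15.44) in GFP+ and from 15.03 to 15.69 (median 15.36) in GFP− arrays. Its difference was 0.17 (95% interval −0.09 to 0.44, limma adjusted p = 0.304). GFP+ cells had the higher signal in all pools but 2-octanone pool 2, at −0.30, and after centring it was called higher (0.45, adjusted p = 0.00619).

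**Figure D2:**
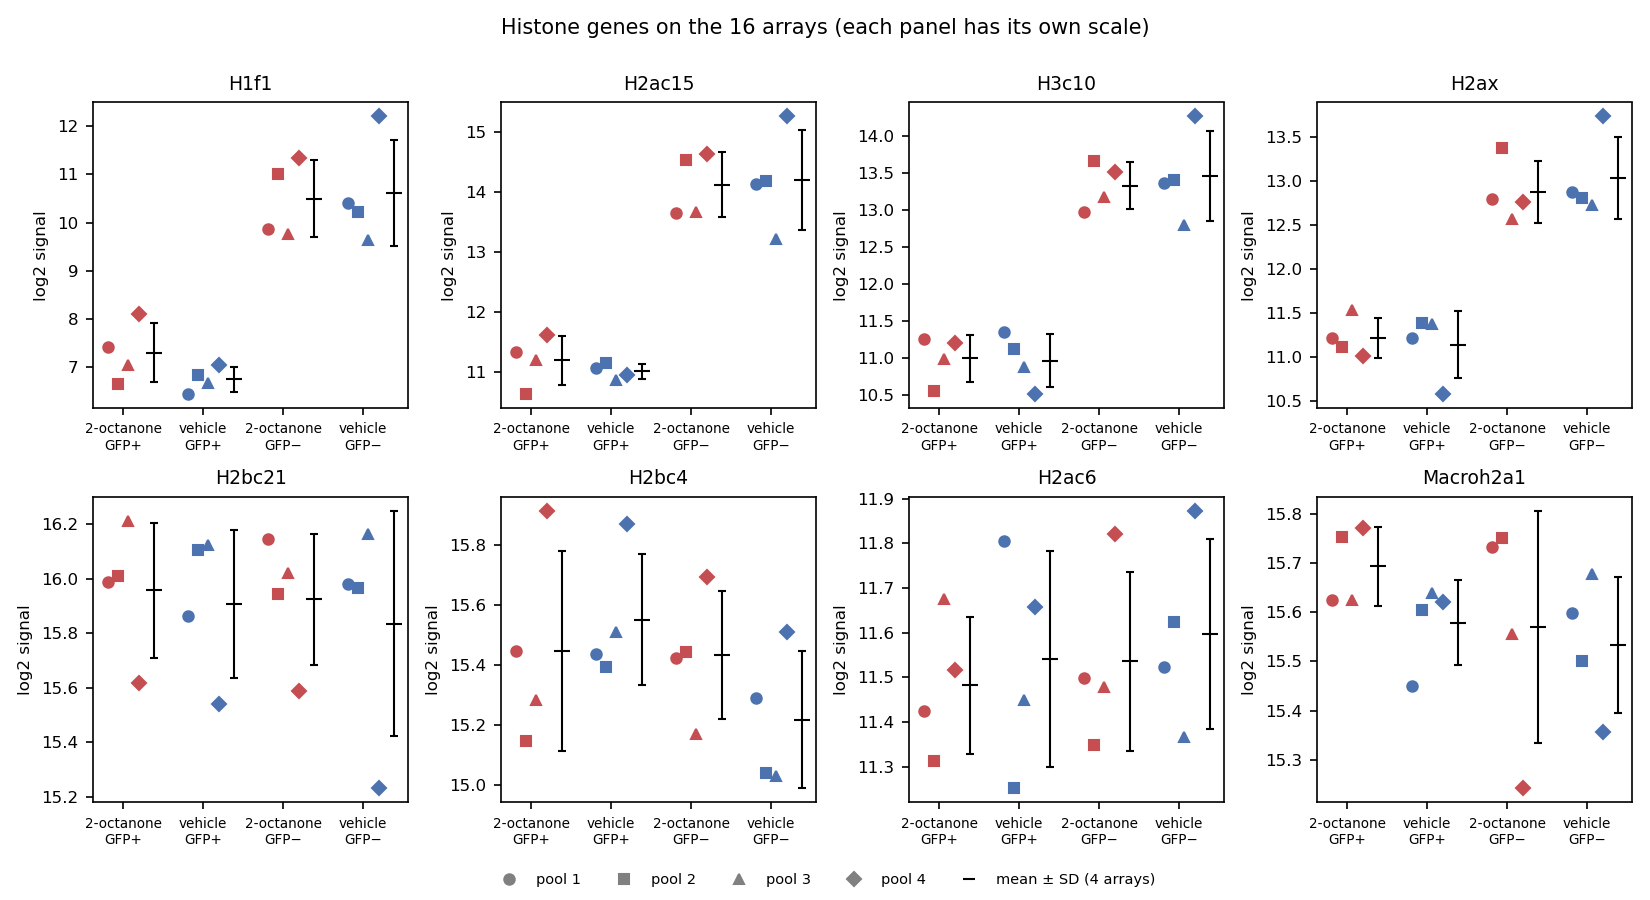
Log2 signal of 8 histone genes on the 16 arrays, with 2-octanone left of vehicle within each fraction; points are single pools, numbered within each exposure, and bars are the mean ± SD of 4 arrays. H1f1, H2ac15, H3c10 and H2ax have GFP+ arrays apart from GFP− arrays, while those of H2bc21, H2bc4, H2ac6 and Macroh2a1 overlap.

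Genes for H3, one of the pair of histones at the core of the nucleosome, were lower for all 10 (median −1.64). H3c10 read 11.25, 10.56, 10.98 and 11.20 in the 2-octanone pools and 11.35, 11.12, 10.87 and 10.51 in the vehicle pools in GFP+ cells. In GFP− cells it read 12.97, 13.66, 13.18 and 13.50 in the 2-octanone pools and 13.37, 13.40, 12.79 and 14.26 in the vehicle pools. Every GFP+ array was below every GFP− array, with a difference of −2.41 (SE 0.19, limma adjusted p = 4.55e-08), 5.32-fold lower. The probe sets of H3c14 and H3c15 differed by −1.38 (SE 0.10, limma adjusted p = 2.08e-08) and H3c13 by −1.47 (SE 0.12). H3c11 differed by −2.46 (SE 0.21). H3c1 differed by −0.63 and was called, although both its fractions were below background (4.40 in GFP+ and 5.03 in GFP− cells).

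Genes for H4, the partner of H3, were lower for 10 of 12, by smaller amounts than the other core classes (median −0.60). H4c6 ranged from 11.09 to 12.01 (median 11.47) in GFP+ and from 12.07 to 13.67 (median 12.70) in GFP− arrays, without overlap, and differed by −1.30 (SE 0.21, limma adjusted p = 0.000129), 2.46-fold lower. H4c8 differed by −0.91 (SE 0.17), H4c1 by −0.83 (SE 0.15) and H4c18 by −0.79 (SE 0.13). H4c3 (−0.33, adjusted p = 0.135) and H4f16 (−0.33, adjusted p = 0.118) were not called by limma; without 2-octanone pool 1 H4f16 was (−0.45). Probe sets respond differently, so whether H4 RNA itself differs less than H3 or H2A RNA was not tested. After centring, 7 of the 12 H4 genes were called lower.

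Promoters of the cluster genes are shown because many members were lower together and because neighbouring H2A and H2B genes often share 1 start region and point away from each other. Of the 71 genes, 64 matched a promoter in RefSeq (GRCm38.p6). The 250 bases before each start were searched on both strands for CCAAT, a box common in histone promoters and bound by NF-Y. They were also searched for the octamer ATTTGCAT, bound by Oct1, and for TATAAA, the letters of the TATA box. A match could lie anywhere in these bases, so not every TATAAA counted stands where a TATA box would. Divergent pairs were sought among genes with a promoter entry, with at most 250 bases between the starts. The 6 H2A and H2B pairs found had spacers of 163 to 248 bases. CCAAT was in all 6 spacers and the octamer and TATAAA in 2 each. The spacers of 3 pairs follow on the plus strand, with CCAAT, ATTTGCAT and TATAAA in capitals in either orientation (ATTGG, ATGCAAAT and TTTATA on the reverse). They lie between the starts of these pairs, which include 3 of the 4 H2A genes with the smallest p.
H2ac15 and H2bc15, chr13:21753913-21754075: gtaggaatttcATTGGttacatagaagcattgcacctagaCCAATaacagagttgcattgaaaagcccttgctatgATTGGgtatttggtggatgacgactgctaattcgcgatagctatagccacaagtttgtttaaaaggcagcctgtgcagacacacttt
H2ac8 and H2bc8, chr13:23571221-23571399: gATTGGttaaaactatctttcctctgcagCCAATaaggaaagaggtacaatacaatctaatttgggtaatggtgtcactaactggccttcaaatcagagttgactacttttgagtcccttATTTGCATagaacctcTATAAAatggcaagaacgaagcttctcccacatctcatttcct
H2bc13 and H2ac13, chr13:21716184-21716411: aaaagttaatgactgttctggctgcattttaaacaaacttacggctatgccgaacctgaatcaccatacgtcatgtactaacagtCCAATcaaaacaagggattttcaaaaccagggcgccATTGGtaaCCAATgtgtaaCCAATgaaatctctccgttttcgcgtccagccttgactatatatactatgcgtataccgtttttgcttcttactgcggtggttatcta

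The 250 bases before the start of 1 gene each for H1, H3 and H4 follow on the gene's own strand, with the same capitals, to show how the classes differ in these letters. H1f1 and H3c10 lie on the plus strand and H4c6 on the minus strand. In the H4c6 window TATAAA opens the printed bases, at the end farthest from the start.
H1f1, chr13:23763418-23763667: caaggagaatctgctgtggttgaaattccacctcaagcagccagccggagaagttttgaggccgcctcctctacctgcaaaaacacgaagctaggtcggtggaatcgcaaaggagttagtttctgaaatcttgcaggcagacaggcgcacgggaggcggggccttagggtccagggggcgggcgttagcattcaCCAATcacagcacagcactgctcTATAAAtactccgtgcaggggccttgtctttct
H3c10, chr13:21717378-21717627: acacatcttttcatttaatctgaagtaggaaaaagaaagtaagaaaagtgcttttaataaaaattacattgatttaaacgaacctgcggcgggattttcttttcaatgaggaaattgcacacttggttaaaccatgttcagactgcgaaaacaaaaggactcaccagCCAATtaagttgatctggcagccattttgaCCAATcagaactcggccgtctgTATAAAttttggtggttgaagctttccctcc
H4c6, chr13:23551669-23551918: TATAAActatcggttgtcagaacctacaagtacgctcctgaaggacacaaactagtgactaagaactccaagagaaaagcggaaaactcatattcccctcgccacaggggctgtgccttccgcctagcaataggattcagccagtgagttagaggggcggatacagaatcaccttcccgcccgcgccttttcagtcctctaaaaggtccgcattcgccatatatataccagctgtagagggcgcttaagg

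CCAAT was found before 39 of 49 cluster genes with a promoter entry (79.6%), beside 33.8% of 32851 promoters in all. It was before all 4 H1, all 12 H2A and all 14 H2B genes, before 6 of 8 H3 genes and before 3 of 11 H4 genes. The octamer was before 5 H2A and 5 H2B genes and no H1, H3 or H4 gene, beside 1.6% of all promoters. TATAAA was before 23 of the 49, beside 12.4% of all. These matches describe the letters of the window, and the windows of divergent neighbours overlap. Within the 6 pairs the H2A gene had the more negative difference each time, in 46 of 48 comparisons within a pool. These comparisons use the same 8 pools for every pair. Over the whole classes, too, the median was lower for H2A (−1.61) than for H2B genes (−1.04). H2ac15 and H2bc15 differed by −3.06 and −1.56, H2ac8 and H2bc8 by −2.46 and −1.33, and H2ac13 and H2bc13 by −1.62 and −0.94. The members of a pair are read by different probe sets, so this is a description.

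Of the 8 genes outside the clusters, 3 were lower, none was higher and the median was −0.25. H2ax, whose protein H2A.X is phosphorylated at DNA breaks and whose mRNA is known in both a stem-loop and a polyadenylated form, ranged from 10.58 to 11.53 (median 11.22) in GFP+ arrays. In GFP− arrays it ranged from 12.57 to 13.73 (median 12.80). The fractions did not overlap, and the difference was −1.77 (SE 0.17, limma adjusted p = 4.17e-07), 3.41-fold lower in GFP+ cells. H2az1, a gene for H2A.Z, was 1.25-fold lower (−0.32, adjusted p = 0.0389) and the linker histone gene H1f10 1.28-fold lower (−0.36, adjusted p = 0.0374) by limma. Both calls were lost after centring (−0.05 and −0.08), and that of H1f10 after quantile normalisation too (−0.09). H2az1 kept its call without 2-octanone pool 4, and without any other single pool it was not called. H1f10 kept it without 2-octanone pool 4 or vehicle pool 3, and without any other single pool it was not called. The other H2A.Z gene, H2az2, differed by −0.40 and was not called (limma adjusted p = 0.0596); with the pool as a block it was (adjusted p = 0.0384), as it was without 2-octanone pool 4 (−0.49).

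The macroH2A genes, which encode H2A variants with a large extra domain, were not called. Macroh2a1 read 15.62, 15.75, 15.62 and 15.77 in the 2-octanone pools and 15.45, 15.60, 15.64 and 15.62 in the vehicle pools in GFP+ cells. It read 15.73, 15.75, 15.56 and 15.24 in the 2-octanone pools and 15.60, 15.50, 15.68 and 15.36 in the vehicle pools in GFP− cells. The fractions overlapped, with the pools numbered 4 lowest among the GFP− arrays. The difference was 0.08 (95% interval −0.11 to 0.27), and 0.36 with a call after centring. Macroh2a2 differed by 0.09 (95% interval −0.17 to 0.35) and Macroh2a3 by 0.16 (95% interval −0.19 to 0.52), and after centring these were called higher as well (0.37 and 0.44). H2aj differed by −0.18 (limma adjusted p = 0.121).

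Of the 9 germ cell genes 1 was lower and 2 were higher in GFP+ cells, with a median of 0.13, that of all genes. H2ac1 was lower by 0.68 on the log2 scale (8.85 ± 0.33 in GFP+ and 9.53 ± 0.42 in GFP− cells, SD, n = 8; limma adjusted p = 0.0107). Leaving out 2-octanone pool 2 or centring ended that call. H2al2a was higher by 0.42 (7.49 ± 0.18 in GFP+ and 7.07 ± 0.33 in GFP− cells; limma adjusted p = 0.0153), in all 8 pools. H1f7 was higher by 0.34 (limma adjusted p = 0.0220) and lost the call without pool 2 or pool 3 of either exposure. After centring, 7 of the 9 were called higher and none lower, beside 66.7% of all genes called higher.

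Genes of dividing cells were lower in GFP+ cells together with the histone genes. The gene lists were chosen with earlier results of these data known, so their counts describe and do not test. Of all genes, 14.0% were called lower and 16.7% higher. Of 21 genes of S phase and DNA replication 14 were lower and none higher (median −1.06), such as the helicase genes Mcm3 at −2.70 (SE 0.20) and Mcm5 at −1.95 (SE 0.18) and the ribonucleotide reductase gene Rrm2 at −3.44 (SE 0.30). All 14 genes of G2 and mitosis were lower (median −2.44), such as Mki67 at −5.21 (SE 0.38), the spindle motor gene Kif11 at −2.65 (SE 0.20) and the spindle checkpoint gene Bub1 at −3.54 (SE 0.27). Of 8 genes of globose basal and precursor cells 6 were lower, with the smallest p for Kit (−3.20, SE 0.11) and then Neurog1 (−1.01, SE 0.09). Of 10 genes of immature neurons 6 were lower, among them Nhlh1 at −4.01 (SE 0.21) and Gng8 at −4.05 (SE 0.23). The other 4 were not called: Dpysl5 (−0.43), Stmn4 (0.05), Tubb3 (0.05) and Ebf2 (0.24). Of 10 genes of mature neurons 6 were higher and none lower (median 0.33), among them Ano2 at 0.53 (SE 0.09) and Slc17a6 at 0.42 (SE 0.11). Of 10 genes that follow activity in olfactory sensory neurons 3 were lower, Calb2 (−2.98), Egr1 (−2.88) and Fos (−4.30), and 4 were higher, among them Pcp4l1 at 1.69. S100a5 itself differed by 0.83 (SE 0.60, limma adjusted p = 0.304) and was not called. Its signal was nevertheless higher in GFP+ than in GFP− cells of the same mice in all 8 pools. The fit does not pair the fractions of a pool, so the low level shared by the pools numbered 4 widens this SE.

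Genes of blood cells moved with the sort too, in lists also chosen with earlier results known. Beside them, 14.0% of all genes were called lower. All 10 neutrophil genes (median −7.04), all 8 genes of bone marrow precursors (median −3.43), all 6 lymphocyte genes (median −2.39), 5 of 9 macrophage genes and 3 of 4 erythroid genes were lower in GFP+ cells. The smallest p among the neutrophil genes were those of Ltf (−6.61) and Camp (−6.92), among the bone marrow precursor genes those of Mpo (−5.74) and Chil3 (−7.12), and among the lymphocyte genes those of Ptprc (−4.75), a gene of all white blood cells, and Cd79a (−3.01). For macrophages they were those of Fcer1g (−4.77) and Tyrobp (−4.09), and for erythroid cells those of Slc4a1 (−2.28) and Alas2 (−1.92). The macrophage genes C1qa (−0.12), C1qb (−0.28), C1qc (−0.01) and Mrc1 (−0.20) were not called. The macrophage list was thus split, and which cells its lower genes came from was not tested. Of 8 sustentacular cell genes, which mark the supporting cells of the epithelium, 2 were lower, the keratin genes Krt8 (−1.94) and Krt18 (−2.35). The other 6 were not called, so that 25% of this list was called, beside 30.8% of all genes. In the list 4 differences were positive, and the median was −0.04. The part of dividing cells and of blood cells in the histone differences was not tested.

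By array, the mean of the 54 cluster histone genes was 11.37, 11.11, 11.30 and 11.40 in the 2-octanone pools and 11.27, 11.26, 11.14 and 11.22 in the vehicle pools in GFP+ cells. In GFP− cells it was 12.27, 12.77, 12.23 and 12.53 in the 2-octanone pools and 12.48, 12.47, 11.97 and 13.08 in the vehicle pools. Among the GFP− arrays, vehicle pool 4 was the highest and vehicle pool 3 the lowest. The same arrays were the highest and lowest for the S phase genes, at 9.40 and 8.39, and for the macrophage genes, at 11.09 and 9.68. Vehicle pool 4 was also the highest GFP− array for the genes of G2 and mitosis (9.87), globose basal cells (8.37) and bone marrow precursors (11.55). It was so too for erythroid cells (9.996) and lymphocytes (9.14), and it was the lowest for mature neurons (15.44). Other lists differed. The highest GFP− array was 2-octanone pool 4 for neutrophil genes (15.99). It was 2-octanone pool 2 for sustentacular cell genes (11.92) and 2-octanone pool 3 for immature neuron genes (13.29). In GFP+ arrays the neutrophil mean was 7.15, 7.14, 9.67 and 12.45 in the 2-octanone pools and 7.15, 7.31, 6.71 and 8.19 in the vehicle pools, beside 14.39 to 15.99 in GFP− arrays. The GFP+ arrays of 2-octanone pools 3 and 4 thus stood apart in neutrophil genes, with cluster histone means of 11.30 and 11.40.

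**Figure D3:**
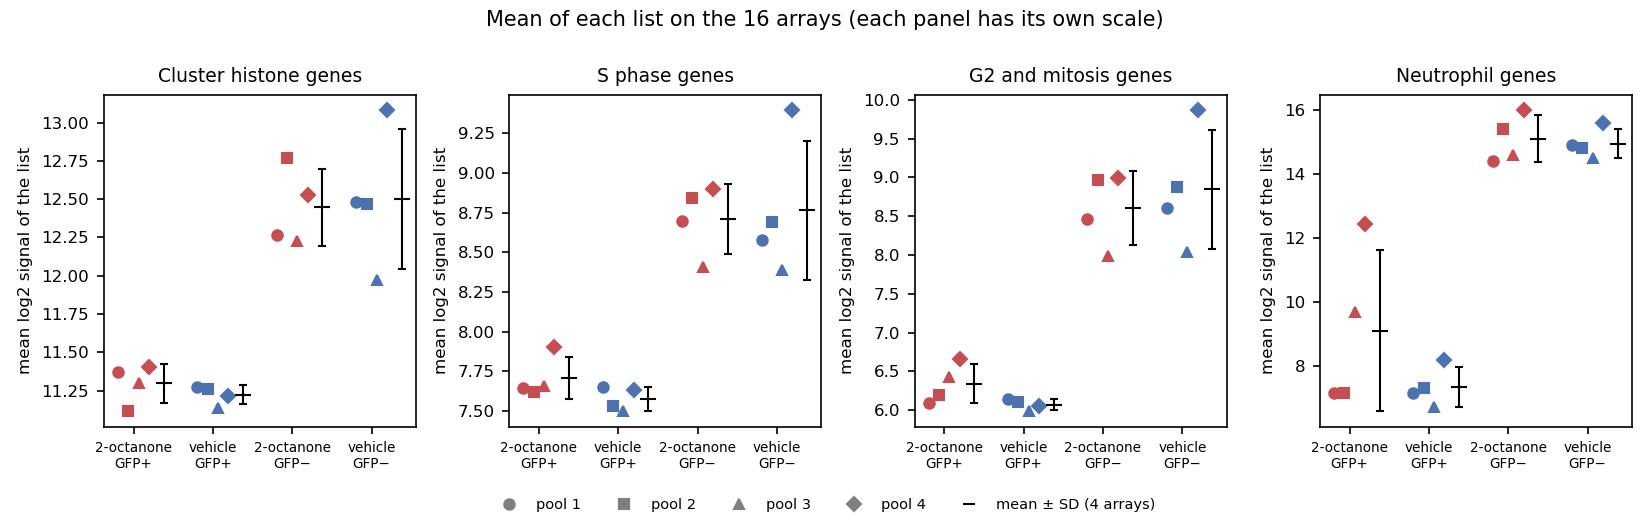
Mean log2 signal of the 54 cluster histone genes and of 3 marker lists on the 16 arrays, with 2-octanone left of vehicle within each fraction; points are single pools and bars the mean ± SD of 4 arrays. GFP+ arrays are lower in all 4 panels, and in the neutrophil panel 2-octanone GFP+ pools 3 and 4 lie above the other GFP+ arrays at 9.67 and 12.45.

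Genes that serve to make and carry histones were called in 2 of 14 cases (14.3%) for transcription and processing and in 7 of 25 (28%) for chaperones and import, beside 30.8% of all genes. Of the 14 genes of histone gene transcription and mRNA processing 1 was lower and 1 higher (median 0.12): Cpsf3, the nuclease gene of 3′ end processing, at −0.31 (SE 0.09), and Zfp473, a zinc finger gene of the same step, at 0.67 (SE 0.12). Slbp, which encodes the protein that binds the stem-loop, differed by −0.25 (limma adjusted p = 0.0755), and Npat, the activator of histone genes in S phase, by 0.14 (limma adjusted p = 0.377). Of the 25 genes of histone chaperones and nuclear import 6 were lower and 1 was higher (median −0.02). The lower ones included Asf1b (−2.50, SE 0.26) and Chaf1b (−1.20, SE 0.24), which place new H3 and H4 on DNA behind the replication fork, Mis18a (−1.36, SE 0.15), which serves the loading of Cenpa at centromeres, and Nasp (−0.67, SE 0.16), an H3 and H4 carrier. Of 4 histone genes outside the symbol rule, 2 were lower and 1 higher. Cenpa, the centromeric H3, was lower at −2.25 (SE 0.30), and the H3.3 gene H3f3a at −0.46 (SE 0.13), and the spermatid linker histone gene Hils1 was higher at 0.42 (SE 0.13), while the other H3.3 gene, H3f3b, was not called (0.03, SE 0.08).

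The sort was also compared within each exposure. After vehicle 42 histone genes were lower and 1, H2al2a, was higher, beside 11.1% and 7.56% of all genes, 18.6% in either direction. After 2-octanone 40 were lower and 1, H1f7, was higher, beside 9.84% and 5.32%, 15.2% in either direction. The 37 genes called in both exposures had the same sign in both. Calls shared by the exposures were not counted over all genes, so this is not shown to be particular to histone genes. H1f1 differed by −3.20 after 2-octanone and −3.87 after vehicle, H2ac15 by −2.93 and −3.19 in the same order, and H2ax by −1.65 and −1.89. For 33 of the 37 the difference was larger in size after vehicle, and this rested on vehicle pool 4: without it the number was 16, H2ac15 stood at −2.93 after 2-octanone and −2.82 after vehicle, and H2ax at −1.65 and −1.47. With any other single pool left out the number was 25 to 36. Whether the sort differs between exposures is tested by how the ratio of GFP+ to GFP− signal changed, and no histone gene was called there. Without 2-octanone pool 2, whose fractions were far apart in H1f1 (−4.36) and H2ac15 (−3.91), 30 histone genes were called after 2-octanone, all lower. Calls over all 19505 genes fell as well, from 2956 with this pool to 1962 without it.

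The comparison of 2-octanone with vehicle asks which genes follow odor exposure. In GFP+ cells 0 of the 71 histone genes were called by limma (0% of all genes; 2 histone genes at an unadjusted p under 0.05, and 613 genes in all). The median difference was 0.05, beside 0.01 for all genes. These were the germ cell genes H2ab2 (0.42) and H1f7 (0.38), each with a limma adjusted p of 1.0. H2ab2 averaged 5.74 after 2-octanone and 5.32 after vehicle, close to the background means of 5.54 and 5.53 on the same arrays. H1f7 averaged 7.13 ± 0.23 after 2-octanone and 6.75 ± 0.07 after vehicle (SD, n = 4). Of the cluster genes, 40 of 54 had a positive difference in GFP+ cells (median 0.06), beside 10022 of all 19505 genes. Probe sets of cluster genes may pick up each other's RNA, so these signs are not independent of each other. H2ac8 stood at 0.39 (SE 0.30), H3c13 at 0.23 (SE 0.17), H2aj at −0.13 (SE 0.12) and H2bc12 at −0.23 (SE 0.24), each with a 95% interval that includes 0, and H2ab3 at −0.19 was below background after either exposure. The widest difference was that of H1f1, 0.55, which rests on values of 6.65 to 8.10 after 2-octanone and 6.45 to 7.04 after vehicle that overlap.

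In GFP− cells 0 of the 71 histone genes were called by limma (0.00513% of all genes, which is 1 gene), and 0 had an unadjusted p under 0.05. The median difference was −0.06, and 37 of the 54 cluster genes had a negative one, beside 9795 of all 19505 genes. The smallest p in each direction belonged to H2al2a (0.35, SE 0.17) and H1f10 (−0.33, SE 0.18). Next came H3c1 (0.26), H2bc4 (0.21) and H4c9 (0.22) among the positive differences, and H3c3 (−0.32), H4c14 (−0.23) and H2bc1 (−0.21) among the negative ones. H1f10 was −0.32 in GFP+ cells as well (SE 0.18), and it was called by limma in neither fraction. H1f10 read 7.50, 7.59, 7.29 and 7.54 in the 2-octanone pools and 7.50, 8.03, 8.21 and 7.48 in the vehicle pools in GFP+ cells, which overlap.

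With 2-octanone, the change in the ratio of GFP+ to GFP− signal was called for 0 of the 71 histone genes by limma (0% of all genes), and none had an unadjusted p under 0.05. H2ac8 stood at 0.70 (95% interval −0.21 to 1.62), H3c3 at 0.49 (−0.13 to 1.11), H2al2a at −0.46 (−0.97 to 0.06) and H2bc4 at −0.32 (−0.85 to 0.21). H2ab2 (0.38), H1f7 (0.31), H2ac20 (−0.21) and H4f16 (−0.29) came next by p. With 4 pools per exposure these intervals leave room for changes well over those measured.

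**Figure D4:**
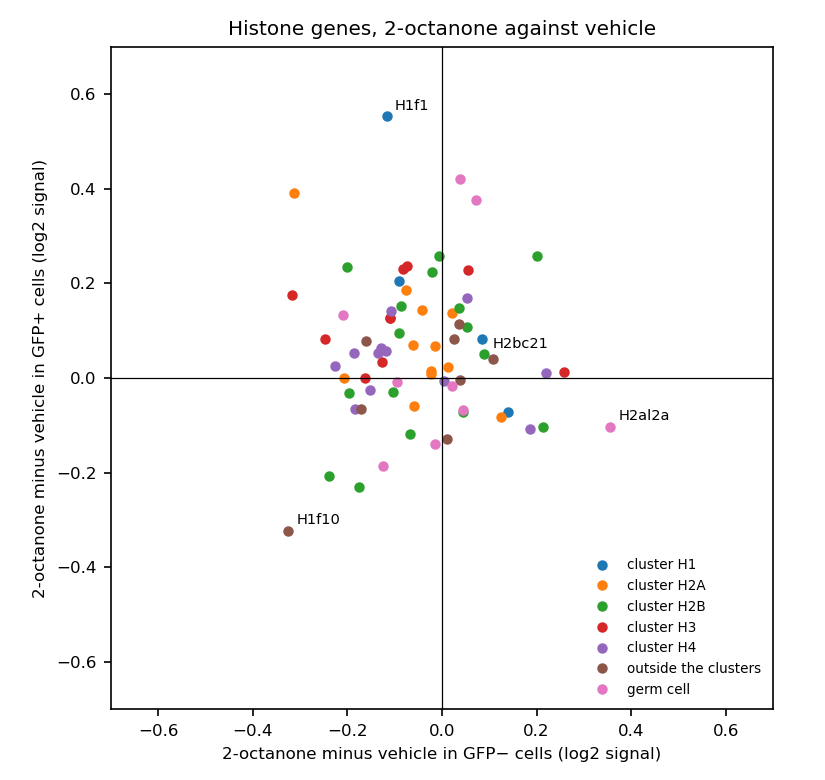
Difference between 2-octanone and vehicle (log2 signal) in GFP+ cells (y axis) against GFP− cells (x axis) for the 71 histone genes, coloured by class, each from 4 arrays against 4. All points lie within −0.32 to 0.55 in GFP+ cells and −0.33 to 0.35 in GFP− cells, and none was called.

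H2bc21, the gene for H2BE, is the member with a known link to neuronal activity, and it was not called in any comparison of the deposited values. In GFP+ cells it read 15.99, 16.01, 16.21 and 15.62 in the 2-octanone pools and 15.86, 16.11, 16.12 and 15.54 in the vehicle pools. In GFP− cells it read 16.14, 15.94, 16.02 and 15.59 in the 2-octanone pools and 15.98, 15.97, 16.16 and 15.23 in the vehicle pools. The lowest value in each of the 4 groups came from the pool numbered 4, which was also low in S100a5, and the groups overlapped. Between GFP+ and GFP− cells the difference was 0.05 (SE 0.14, 95% interval −0.25 to 0.36, limma adjusted p = 0.801), and it was −0.16, 0.07, 0.19 and 0.03 within the 2-octanone pools and −0.12, 0.14, −0.04 and 0.31 within the vehicle pools. These signs are mixed. The sign of the mean turned after quantile normalisation (−0.03), and after centring it was called higher (0.33, adjusted p = 0.0414). Between 2-octanone and vehicle the difference was 0.05 in GFP+ cells (95% interval −0.38 to 0.48) and 0.09 in GFP− cells (95% interval −0.34 to 0.52). The ratio differed by −0.04 (95% interval −0.65 to 0.57). Of the 8 cluster genes on chromosome 3, H2bc21 and H2ac21 were the pair without a call in the sort, while H2ac20 was 1.27-fold lower in GFP+ cells (−0.35, limma adjusted p = 0.0167), in all 8 pools. That call was lost after centring (−0.07, adjusted p = 0.526), without 2-octanone pool 2 (−0.32) and without vehicle pool 2 (−0.33), and H2ac20 was not called after vehicle alone (limma adjusted p = 0.270).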

How the data were processed

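The deposited table holds 1 value per probe set and array, which the authors made with Affymetrix Expression Console, per the submitters' processing notes, from biotinylated cRNA of 50 to 100 ng of total RNA, per the labels' protocols. The deposited values, from 2.29 to 18.99 over named genes, were read as normalised log2 signals because of that range; the log base, the normalisation algorithm and the genome build are not given in the sources used here, and the reported values were not normalised again. With 4 arrays in a group, it is their number that limits the precision.

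Probe sets were named through the platform's Entrez identifiers and mouse RefSeq genes. Where a gene had several probe sets, that of the highest mean signal was kept. The members and gene lists were chosen with earlier results of these data known. All 19505 genes entered 1 fit on the 4 group means (lmFit and eBayes of limma 3.58.1, R 4.3.3), with 12 residual and 4.19 prior degrees of freedom; tests were two-sided, and the threshold for a call was 0.05 after Benjamini-Hochberg adjustment over all genes. The fit was tested on simulated data in which some genes were changed. Tables and figures were made with pandas 2.3.3 and matplotlib 3.10.9 in Python 3.11.15. A group was below background where its mean was under that of the array's background probe sets.

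Named in the text were H2bc21 in every comparison, up to 4 members per class with the smallest p in the sort, the 4 members with the smallest p in each direction in the exposure comparisons and the ratio, and 2 to 4 members with the smallest p of each list with a call in the sort; other genes and single arrays were chosen with their values in view. A pool pairs its fractions, which share their mice (correlations of deviations from the group means −0.00 to 0.46). Equal numbers of the exposures correlated at 0.18 to 0.43 in GFP+ cells, all over 0.1, and at −0.06 to 0.52 in GFP− cells. Alternatives were quantile normalisation, median centring, leaving out low signals (under 7.87), the mean of probe sets, the trend and robust settings of limma, only the arrays compared, the pool or number as a block, leaving out each pool or both pools numbered 4, and an adjusted p under 0.1.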

Additional observations from a re-analysis of the deposited data

Results flagged for a closer look

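Single arrays far from the other 3 of their group, by Dixon's test, were found for 11 of 200 combinations of a named histone gene and a group, where chance gives about 1 in 20. Of the 11, 7 were arrays of pools numbered 4. In GFP+ cells after 2-octanone, H2ac13 read 14.12 in pool 4 (13.80 to 13.83 in the others) and H4c9 9.62 in pool 4 (9.75 to 9.78), while H2bc7 read 11.80 in pool 2 (12.28 to 12.33) and H2ab3 4.75 in pool 2 (4.50 to 4.51). In GFP+ cells after vehicle, H2aj read 12.31 in pool 4 (11.96 to 12.00), H4c14 12.91 in pool 4 (13.34 to 13.42) and H4c18 13.37 in pool 3 (13.57 to 13.60). In GFP− cells after vehicle, H2ax read 13.73 in pool 4 (12.72 to 12.87), H2az2 10.45 in pool 4 (9.61 to 9.69), H2bc1 5.54 in pool 4 (6.02 to 6.06) and H4f16 7.73 in pool 2 (8.0 to 8.03). Without both pools numbered 4, 52 histone genes were called in the sort over both exposures, beside 53 with them. Of all 19505 genes, 5318 were called without these pools and 5998 with them.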

How the results depend on the processing

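The counts of histone genes called kept within 1.5 times of their value in every alternative run: 46 to 54 in the sort over both exposures (53 as reported; 48 to 53 with 1 pool left out), 39 to 48 after vehicle (43; 39 to 44), 30 to 46 after 2-octanone (41; 30 to 45), and 0 in both exposure comparisons and the ratio. Calls over all genes varied more. Where all 19505 genes were tested, 4739 to 15062 were called in the sort over both exposures (5998 as reported). After vehicle it was 2552 to 11125 (3633), and after 2-octanone 1962 to 9557 (2956). The highest counts came with centring, where 42 histone genes were lower and 12 higher, beside 77.2% of all genes called in either direction. Of 30 genes whose call in the sort is given, 24 kept it in every alternative. With the replicate block, the pool or number that pairs the arrays, the counts were 54, 45, 40 and 0, 0 and 0; H2ac1 gained a call after vehicle (−0.72, adjusted p = 0.0380) and H1f7 lost one after 2-octanone (0.49, adjusted p = 0.0514), and for H2bc21 the block gave an adjusted p of 0.657 in the sort. H2bc21 changed sign around 0. In the sort it was −0.0295 after quantile normalisation and 0.33, with a call, after centring; after vehicle −0.00911 after quantile normalisation and −0.00712 without both pools numbered 4; and after 2-octanone −0.0499 after quantile normalisation. Without both pools numbered 4 it was −0.0011 for 2-octanone against vehicle in GFP− cells and 0.0422 for the ratio. With 1 pool left out, it ran from 0.0132 to 0.0845 in the sort, −0.00712 to 0.14 after vehicle, −0.0191 to 0.0967 after 2-octanone, −0.0726 to 0.16 and −0.11 to 0.20 between exposures in GFP+ and GFP− cells, and −0.10 to 0.0407 for the ratio. Sign also turned after centring for H2ac21 (0.135), H2aj (0.0961) and H2bu2 (0.0772), for H2ac6 after centring (0.22) and without both pools numbered 4 (0.0136), for Macroh2a1 without both pools numbered 4 (−0.0204), and for H2az1 after vehicle with centring (0.0039). The cause was not tested, except that centring adds 0.28 to every difference in the sort. Without 2-octanone pool 2, H4c6, H4c18, H4c1 and H4c8 were not called after 2-octanone. Alternatives with only the arrays compared do not exist for the sort over both exposures and the ratio, which use all arrays. Signals near background limit the germ cell genes.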
